A study of Mus musculus with 19 samples.

Results

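Basic helix-loop-helix (bHLH) factors of the Olig and proneural families were followed in mouse neural progenitors, in embryonic stem cells (ESC) depleted of the nucleoporin Nup153, and in control ESC. The 8 genes were Olig1, Olig2, Neurog1, Neurog2, Neurod1, Neurod4, Atoh1 and Bhlhe22, chosen by name out of the 24016 genes of the deposited RNA table, and all 8 were found in it. For each gene the RNA level was read in 5 RNA-seq libraries, and the peaks of 9 lists were sought within 2 kb of the transcription start site (TSS). The neural progenitors (NeuP, 2 RNA libraries) had been made through embryoid bodies, with Noggin at 0.5 µg/ml and then FGF2 and EGF at 20 ng/ml each, and the labels name no parent line and no genetic change for them. The knockdown was made in E14 ESC with lentiviral short hairpins against Nup153, 1 RNA library each for hairpin #2 and hairpin #4. Control ESC (1 RNA library) were E14 cells with a non-target hairpin. All hairpin-carrying ESC, control included, grew on irradiated mouse embryonic fibroblasts and had been selected with puromycin at 2 µg/ml for at least 4 days, whereas no hairpin or puromycin is named for NeuP. Ring1B peak lists came from NeuP, hairpin #2, hairpin #4 and control cells, Cbx7 from control ESC, and Oct4 from hairpin #2 and control cells, each from 1 ChIP-seq library. DamID, in which a protein fused to a DNA methylase marks the DNA it comes near, gave 1 peak list for Nup153 and 1 for Oct4, in ESC that carried the Dam fusion from a viral vector and were selected with puromycin at 2 µg/ml.

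Proneural bHLH proteins bind E-box DNA as dimers with broadly expressed E-proteins, while Id proteins pair with E-proteins without binding DNA and Hes proteins, induced by Notch, repress proneural genes. Neurog1, Neurog2 and Atoh1 start neuronal commitment, Neurod1 and Neurod4 act later in neuronal differentiation, and Bhlhe22, Olig1 and Olig2 are related factors that mostly repress transcription. Olig2 is needed for motor neurons and oligodendrocytes, Olig1 acts with it in the oligodendrocyte lineage, and Olig2 is also known from neural stem cells grown in FGF2 and EGF. In pluripotent cells such genes are held silent by Polycomb complexes, of which Ring1B and Cbx7 are subunits, and CpG-rich DNA at the start of a gene is a known platform for them.

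The RNA libraries held 24.3 to 32.1 M fragments. Nup153 itself stood at 20.9 FPKM in hairpin #2 and 17.4 FPKM in hairpin #4, against 39.4 FPKM in control ESC, a log2 difference of -1.01 ± 0.55 (SE) that did not pass the test (limma-trend, Benjamini-Hochberg adjusted p = 0.897). FPKM is the fragment count scaled to transcript length and library depth, so levels can be set side by side between genes. In NeuP, Nup153 was at 12.8 and 29.1 FPKM. The pluripotency gene Pou5f1 stood at 1.99 and 1.65 FPKM in the NeuP libraries, against 476 and 501 FPKM in the knockdown and 543 FPKM in control ESC. The sum of 14 neural progenitor markers was 4277 and 4394 FPKM in NeuP, against 234 and 223 FPKM in the knockdown and 186 FPKM in control ESC. Of the NeuP sums, Fabp7 alone made up 2454 and 3143 FPKM. By the same test 8 of the 14 were higher in NeuP and 0 lower, beside 18.3% and 24.9% of all genes tested. The labels do not say whether libraries came from separate cultures, so p-values measure only the spread between these samples, and the fit gives the single control library the spread seen in the NeuP and knockdown libraries. In bulk RNA, fewer cells of a type and less RNA per cell cannot be told apart.

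The start regions of the members differed in their CpG content, and 4 are shown: of the 6 members with a sequence, the 3 with the most CG and the 1 with the fewest. The sequences are the 250 bases just before the TSS, 5′ to 3′ on the transcribed strand, from RefSeq on GRCm38.p6, with every CG in capitals. They lie at chr13:56252181-56252430 on the minus strand for Neurog1, chr16:91225300-91225549 on the plus strand for Olig2, chr2:79456637-79456886 on the minus strand for Neurod1 and chr10:130280255-130280504 on the minus strand for the first of 2 annotated starts of Neurod4.
Neurog1: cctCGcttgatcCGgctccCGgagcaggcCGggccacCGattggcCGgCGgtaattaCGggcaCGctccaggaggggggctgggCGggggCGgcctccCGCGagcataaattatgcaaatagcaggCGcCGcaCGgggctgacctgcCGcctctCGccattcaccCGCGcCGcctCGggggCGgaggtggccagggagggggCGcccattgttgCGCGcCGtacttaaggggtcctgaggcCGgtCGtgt
Olig2: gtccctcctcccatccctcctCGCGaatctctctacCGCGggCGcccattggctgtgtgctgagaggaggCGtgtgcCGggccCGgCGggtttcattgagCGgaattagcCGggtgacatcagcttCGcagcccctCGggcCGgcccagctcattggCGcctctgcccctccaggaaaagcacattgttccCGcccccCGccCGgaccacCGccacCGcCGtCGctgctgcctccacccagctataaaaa
Neurod1: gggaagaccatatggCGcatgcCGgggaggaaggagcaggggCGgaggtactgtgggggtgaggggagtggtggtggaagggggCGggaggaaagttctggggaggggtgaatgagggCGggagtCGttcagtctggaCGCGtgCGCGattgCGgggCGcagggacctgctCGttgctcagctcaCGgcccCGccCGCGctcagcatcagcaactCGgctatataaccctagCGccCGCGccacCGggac
Neurod4: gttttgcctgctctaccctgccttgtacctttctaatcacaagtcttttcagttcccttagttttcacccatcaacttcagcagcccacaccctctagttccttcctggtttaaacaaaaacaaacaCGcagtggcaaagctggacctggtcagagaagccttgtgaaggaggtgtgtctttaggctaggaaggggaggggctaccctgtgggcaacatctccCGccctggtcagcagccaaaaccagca

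Of the 8 members 6 had an entry in the RefSeq promoter table, Olig1 and Bhlhe22 being the others. Neurog1 held 29 CG in its 250 bases, a count reached by 6.78% of the 32851 promoter windows of the same length in the table. Olig2 and Neurod1 held 22 each, reached by 14.8% of windows, Atoh1 held 14 and Neurog2 held 8, and the median of all windows was 6. Neurod4 stood at the other end, with 2 CG at its first start and 7 at its second, and 29.0% of all windows held 2 or fewer. The observed CG count was 0.923 of that predicted from base composition at Neurog1, 0.821 at Olig2 and 0.125 at the first Neurod4 start, beside a median of 0.373 over all windows. The general E-box CANNTG, searched on both strands, stood in 66.2% of all windows but among the members only at Neurod1, once, at position -242 from the TSS. The octamer ATGCAAAT, the letters read by Oct4, stood once at Neurog1, at position -138 from the TSS, and in 1.60% of all windows. CAGCTG stood in 13.0% of all windows and in 0 of the members' windows. A match is a run of letters and not a site.

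Olig1 and Olig2 RNA was high in NeuP and close to absent in ESC. Olig2 (NM_016967, mm9 chromosome 16, 91225795 to 91228922, plus strand) stood at 201 and 265 FPKM in NeuP replicates 1 and 2, against 0 FPKM in hairpin #2, 0.21 FPKM in hairpin #4 and 0.016 FPKM in control ESC. The groups did not overlap, and the control value rested on 1 read where the NeuP values rested on 15750 and 15674. Olig2 rose by 7.84 ± 0.27 (SE) on the log2(FPKM + 1) scale in NeuP against control ESC (95% interval 7.05 to 8.62, limma-trend, Benjamini-Hochberg adjusted p = 0.00238). Olig1 (NM_016968, mm9 chromosome 16, 91270014 to 91272184, plus strand) stood at 288 and 139.9 FPKM in NeuP, against 0.059 FPKM in hairpin #2, 0.199 FPKM in hairpin #4 and 0.036 FPKM in control ESC. It rose by 7.61 ± 0.50 (SE) on the same scale (95% interval 6.18 to 9.04, limma-trend, Benjamini-Hochberg adjusted p = 0.00332). The call on Olig1 rests on the full set of libraries: without hairpin #2 its adjusted p was 0.0508 and without hairpin #4 it was 0.0510 (limma-trend, Benjamini-Hochberg), with the same log2 difference of 7.61.

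The pseudocount of 1 compresses these differences, so the recovered reads were also set side by side. Per fragment sequenced, Olig2 reads were 14134 times as frequent in NeuP as in control ESC (95% exact interval 2537 to 558260, counting error only), and Olig1 reads 6174 times (1709 to 50979). The mean level in NeuP was 233 ± 45.3 FPKM for Olig2 and 214 ± 105 FPKM for Olig1 (SD, n = 2), which placed them 73rd and 85th among the 24016 genes. The balance between the pair differed between the NeuP libraries: Olig1 was 2.06 times as high in replicate 1 as in replicate 2, while Olig2 was 0.759 times as high. The genes whose pattern over the 5 libraries lay closest to Olig2, by Euclidean distance between centred log2(FPKM + 1) values, were Ptprz1 (distance 0.365), Gpm6b (0.778) and Gpm6a (0.817). Closest to Olig1 were Adcyap1r1 (0.417), Mlc1 (0.498) and Gpm6a (0.555), with Olig2 in place 10 at a distance of 1.05.

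**Figure D1:**
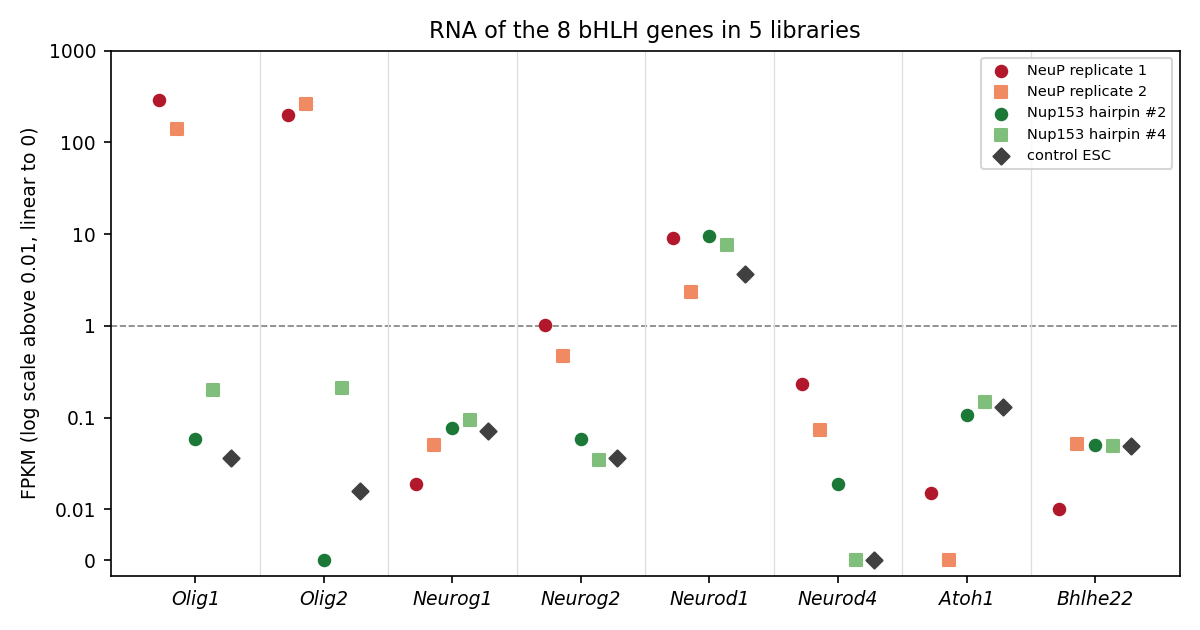
FPKM of the 8 bHLH genes in the 5 RNA libraries, on an axis that is logarithmic above 0.01 and linear down to 0, with 1 point per library. Olig1 and Olig2 lie between 139.9 and 288 FPKM in NeuP and at or under 0.21 FPKM in every ESC library, whereas Neurod1 overlaps between the groups and 4 genes stay under 0.3 FPKM throughout.

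Of the 8 members 4 passed the filter of at least 1 FPKM in at least 1 library, and 2 of those 4, Olig1 and Olig2, were called higher in NeuP and 0 lower, beside 18.3% of the 13750 genes tested called higher and 24.9% called lower. At an unadjusted p under 0.05 Neurog2 joined them, giving 3 of 4, beside 53.7% of all genes. A gene absent from ESC passes this filter only through a high NeuP level, so the count of 2 describes these genes and supports nothing further. The 13750 genes had a median log2 difference of -0.26 in NeuP against control ESC.

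Among the factors that start neuronal commitment, Neurog2 had a low level in NeuP and the other two stayed at the level of single reads. Neurog2 (NM_009718, mm9 chromosome 3, 127336063 to 127338549, plus strand) stood at 1.01 and 0.465 FPKM in NeuP, against 0.058 FPKM in hairpin #2, 0.035 FPKM in hairpin #4 and 0.036 FPKM in control ESC, with no overlap between NeuP and ESC. Its log2 difference of 0.73 ± 0.24 (SE, 95% interval 0.04 to 1.42) did not pass the test over all genes (limma-trend, Benjamini-Hochberg adjusted p = 0.0828). Without NeuP replicate 1 the log2 difference was 0.50, and without replicate 2 it was 0.96. Each of those fits held 1 NeuP and 1 control library, with a spread from the hairpin libraries alone, so no call is drawn from them. By reads Neurog2 was 21.8 times as frequent in NeuP as in control ESC (95% exact interval 5.88 to 183). These were 72 and 25 reads in NeuP and 2 in control ESC. The nearest patterns to Neurog2, at this low level, were those of Adamts5 (distance 0.0329), Celf4 (0.0596) and Leng9 (0.0699). Neurog1 (NM_010896, mm9 chromosome 13, 56351860 to 56353524, minus strand) had 1 and 2 reads in NeuP, against 4 in each hairpin library and 3 in control ESC, a read ratio of 0.450 for NeuP over control whose interval ran from 0.0602 to 3.36. A difference in Neurog1 was not detectable at this depth.

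Atoh1, which specifies cerebellar granule neurons and hair cells, was the only member whose read ratio of NeuP to control ESC had an interval wholly below 1. Atoh1 (NM_007500, mm9 chromosome 6, 64679140 to 64681229, plus strand) had 1 and 0 reads in NeuP, against 7 and 8 reads in the knockdown and 7 in control ESC. The ratio of NeuP to control reads was 0.0643 (95% exact interval 0.00143 to 0.500), at levels of 0.015 and 0 FPKM in NeuP, 0.108 and 0.15 FPKM in the knockdown and 0.132 FPKM in control ESC. Atoh1 lay below the filter in every library, and in the fit over all 24016 genes its difference of -0.17 did not pass the test (limma-trend, Benjamini-Hochberg adjusted p = 0.0604).

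Of the differentiation factors, Neurod1 was the only member with an FPKM of at least 1 in every library. Neurod1 (NM_010894, mm9 chromosome 2, 79292798 to 79296793, minus strand) stood at 9.02 and 2.32 FPKM in NeuP, against 9.68 FPKM in hairpin #2, 7.55 FPKM in hairpin #4 and 3.66 FPKM in control ESC. The NeuP libraries lay on both sides of the control library, with log2 differences of 1.11 for replicate 1 and -0.49 for replicate 2. The fitted difference was 0.31 ± 0.75 (SE, 95% interval -1.82 to 2.44, limma-trend, Benjamini-Hochberg adjusted p = 0.752). Each NeuP library alone gave a different direction: without replicate 2 the difference was 1.11, and without replicate 1 it was -0.49. The spread in those fits came from the hairpin libraries alone, so no call is drawn from them. Neurod1 was 3.89 times as high in NeuP replicate 1 as in replicate 2. The genes with the nearest pattern were Dlgap3 (distance 0.340), Frmd5 (0.387) and Lzts2 (0.449).

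Neurod4 and Bhlhe22 stayed below the filter. Neurod4 (NM_007501, mm9 chromosome 10, 129705208 to 129717296, minus strand) had 25 and 6 reads in NeuP, against 2 and 0 reads in the knockdown and 0 in control ESC. These reads gave 0.233 and 0.074 FPKM in NeuP. Bhlhe22 (NM_021560, mm9 chromosome 3, 17954325 to 17957514, plus strand) had 1 and 4 reads in NeuP, against 5 and 4 in the knockdown and 4 in control ESC. Its NeuP over control read ratio of 0.562 had an interval of 0.121 to 2.83. All members, taken by mean NeuP level, ran from Olig2 and Olig1 through Neurod1 and Neurog2 to Neurod4, Neurog1, Bhlhe22 and Atoh1. Olig2 and Olig1 overlapped in that order, as did the last 3, whose NeuP values rested on 0 to 4 reads.

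No member was called in the Nup153 knockdown, where the test called no gene at all. In the knockdown 0 of the 4 tested members were called higher and 0 lower, beside 0% of the 13750 genes in each direction. The smallest adjusted p of any gene was 0.825 (limma-trend, Benjamini-Hochberg). With voom on the recovered reads 0 were called as well, and the smallest adjusted p was 0.9999 (limma-voom, Benjamini-Hochberg). These counts of 0 are thus no sign that the members were unchanged. At an unadjusted p under 0.05 the members gave 0 of 4, beside 5.92% of all genes (814). The spread in this fit came from both the NeuP and the hairpin libraries. The largest member difference was that of Neurod1, at 8.61 ± 1.51 FPKM (SD, n = 2) in the knockdown and 3.66 FPKM in control ESC. Both hairpin libraries lay above the control library, by 1.2 and 0.88 on the log2 scale, and NeuP replicate 1 lay between them. The fitted difference of 1.04 ± 0.75 (SE) had a 95% interval of -1.10 to 3.17 (limma-trend, Benjamini-Hochberg adjusted p = 0.971), which holds 0 as well as differences larger than that fitted. With the ESC libraries fitted alone the same difference had an SE of 0.18 and did not pass (limma-trend, Benjamini-Hochberg adjusted p = 0.0822). That was the smallest adjusted p of any gene in that fit, where 4673 genes had an unadjusted p under 0.05 and 0 were called. Not passing there is thus no sign that Neurod1 was unchanged. Olig1 differed by 0.12 ± 0.50, Olig2 by 0.11 ± 0.27 and Neurog2 by 0.01 ± 0.24 on the log2 scale (SE; limma-trend, Benjamini-Hochberg adjusted p = 1 for each).

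The trace of Olig RNA in ESC was highest in hairpin #4, with 11 reads of Olig1 and 13 of Olig2, against 4 and 0 reads in hairpin #2 and 2 and 1 in control ESC. Other genes that were high in NeuP and nearly absent from control ESC were also higher in hairpin #4 than in hairpin #2. The sum of the 14 neural progenitor markers was not, at 234 FPKM in hairpin #2 and 223 FPKM in hairpin #4. Over the 11 other genes with a NeuP mean of at least 100 FPKM and at most 0.1 FPKM in control ESC, the median level was 0.144% of the NeuP mean in hairpin #4 (range 0.0593% to 0.455%) and 0.0278% in hairpin #2, and all 11 were higher in hairpin #4. Their low level in control ESC was set by how they were chosen and is not compared. Olig1 and Olig2 in hairpin #4 were at 0.0929% and 0.0900% of their NeuP means. What put these reads in that library was not tested.

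The NeuP libraries held high Olig RNA without RNA of the later oligodendrocyte genes. Sox10, the factor that with Olig2 commits cells to the oligodendrocyte lineage, stood at 0.103 and 0.228 FPKM in NeuP, against 0.119 and 0.275 FPKM in the knockdown and 0.16 FPKM in control ESC. The myelin genes Mog, Mag and Mobp were at 0 FPKM in both NeuP libraries, and Mbp, the myelin basic protein gene, fell to 0.019 and 0.051 FPKM in NeuP, against 2.34 FPKM in control ESC. Over the oligodendrocyte lineage list, 4 of the 12 tested genes were higher and 2 lower in NeuP, with a median log2 difference of 1.8. Over all 13750 genes tested, 18.3% were called higher and 24.9% lower. The risers were Sox8 (148.8 and 101 FPKM in NeuP, 0.316 FPKM in control ESC, log2 difference 6.55), Lhfpl3 (4.94), Bcas1 (3.90) and Tmem100 (3.38), and the genes that fell were Mbp (-1.69) and Myrf (-1.53). The list summed to 353 and 201 FPKM in NeuP, against 29.5 and 29.9 FPKM in the knockdown and 23.9 FPKM in control ESC. Markers of other cell types also moved with the NeuP libraries: 8 astrocyte markers summed to 2210 FPKM in replicate 1 and 702 FPKM in replicate 2, against 70.0 FPKM in control ESC. Aldoc alone made up 1564 and 287 FPKM of the NeuP sums. Of the 8, 5 were higher in NeuP and 1, Aldh1l1, was lower. Of 12 tested neuron markers 3 were higher and 2 lower in NeuP, beside the same 18.3% and 24.9% of all genes. The 15 in the table summed to 264 and 168 FPKM in NeuP, against 86.6 FPKM in control ESC, but without Map2 (224 and 118 FPKM in NeuP, 0.487 FPKM in control ESC) the other 14 summed to 40.0 and 49.8 FPKM in NeuP, against 86.1 FPKM in control ESC. Feeder fibroblast markers (14 genes) summed to 82.7 and 146 FPKM in NeuP, 18.1 and 17.9 FPKM in the knockdown and 11.9 FPKM in control ESC. Of the 13 tested, 6 were higher and 1 lower in NeuP. The lower one was the collagen gene Col1a2, at 0.012 and 0.235 FPKM in NeuP and 1.11 FPKM in control ESC. Whether cells of any of these types were present, and their part in the Olig, Neurog2 and Neurod1 levels, was not tested.

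Of the dimer partners, 2 of 3 E-protein genes rose in NeuP, beside 18.3% of all genes tested called higher. Tcf12 stood at 188 and 168 FPKM in NeuP, against 11.5 FPKM in control ESC (log2 difference 3.84), and Tcf4 at 157 and 105 FPKM, against 4.28 FPKM (4.62), while Tcf3 at -0.57 did not pass the test. The Id inhibitors, which take E-proteins away from the proneural factors, were also higher in 3 of 4 cases, beside the same 18.3%. Id2 stood at 251 and 157 FPKM in NeuP, against 24.4 FPKM in control ESC, Id1 at 37.7 and 29.0 FPKM, against 10.3 FPKM, and Id3 at 197 and 35.4 FPKM, against 3.24 FPKM. Id4 differed by 2.76 without passing the test. Median log2 differences were 3.84 for the E-proteins and 2.87 for the Id genes.

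Of 21 other proneural and neuronal bHLH genes 6 were tested, with a median of 0.26. Among them Bhlha15 (-1.85) and Ascl2 (-0.76) fell, beside 24.9% of all genes tested called lower. The Hes and Hey repressors had 2 of 8 tested genes higher and 0 lower, beside 18.3% and 24.9% of all genes. Their median was 1.31: Hey1 rose by 4.19 and Hes6, an antagonist of Hes1, by 2.12. Hes5, the Notch effector of neural progenitors, stood at 84.5 and 9.52 FPKM in NeuP and at 0 FPKM in control ESC without passing the test (log2 difference 4.91; limma-trend, Benjamini-Hochberg adjusted p = 0.0564).

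Among 9 Notch ligands and receptors 1 was higher in NeuP and 2 were lower, with a median of 0.86. Over all genes tested, 18.3% were called higher in NeuP and 24.9% lower. The NeuP counts of this list and of those that follow were not tested against these shares. Dll3, an inhibitory ligand induced by proneural factors, rose by 4.03, and Jag2 (-4.21) and Notch4 (-0.53) fell. Genes known downstream of proneural factors are a list that shares Dll1 and Dll3 with the Notch list. Of its 21 tested genes 9 were higher and 2 lower in NeuP, beside the same 18.3% and 24.9%, with a median of 1.45. They included Myt1, at 32.4 and 17.6 FPKM in NeuP against 0.03 FPKM in control ESC (log2 difference 4.6), and Cdh11 (3.40), whereas Stmn2, a neuronal tubulin regulator, fell by 5.55 on the log2 scale. Of 12 tested patterning genes 4 rose and 4 fell, with a median of 0.58, Pax6 (3.96) and Pax3 (3.74) being the largest risers and Gli1, a Hedgehog target, falling by 2.30. In the knockdown 0 genes of any of these lists were called, and the largest difference within its list was that of Dll1 (-1.31) among the Notch genes, Bhlhe41 (-1.19) among the Hes and Hey repressors and Id2 (-1.12) among the Id inhibitors. Dll1, a Notch ligand induced by Neurog2, stood at 7.39 and 4.16 FPKM in the knockdown, against 15.4 FPKM in control ESC (limma-trend, Benjamini-Hochberg adjusted p = 0.856). Notch3, a receptor named here after its value was seen, differed the other way by 1.22, at 26.0 and 26.5 FPKM in the knockdown, against 10.7 FPKM in control ESC (limma-trend, Benjamini-Hochberg adjusted p = 0.825).

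**Figure D2:**
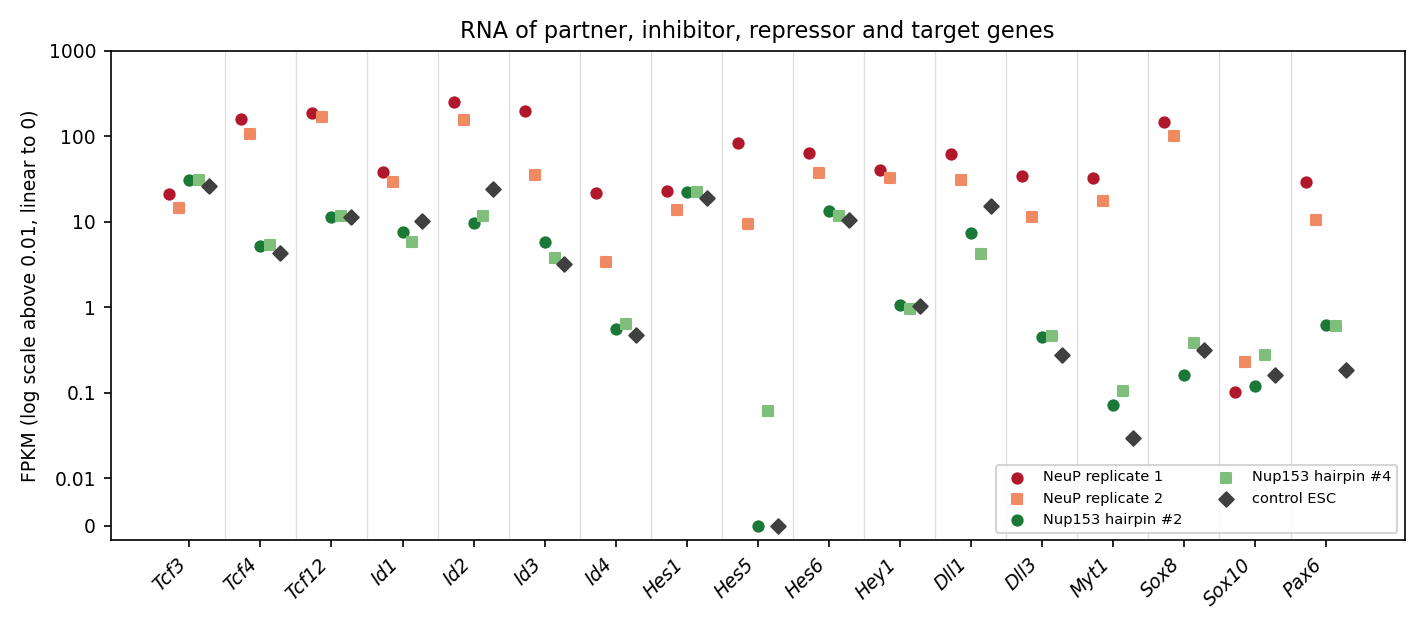
FPKM of partner, inhibitor, repressor and target genes in the 5 RNA libraries, on an axis that is logarithmic above 0.01 and linear down to 0, with 1 point per library. Tcf4, Tcf12, Sox8 and Myt1 lie above all ESC libraries in both NeuP libraries, while Sox10 stays under 0.3 FPKM in every library.

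Polycomb peaks lay at the start of nearly every member in ESC. A Cbx7 peak of control ESC lay within 2 kb of the TSS at 7 of 8 members, all but Neurod4, beside 13.2% of all genes and 13.5% of the 10266 genes under 1 FPKM in all 5 libraries. At Olig2 the Cbx7 peak was 14866 bp long and covered the window of 4 kb whole, as did the peaks at Neurog1, Neurog2, Neurod1 and Atoh1. Olig1 was covered over 72.6% of its window and Bhlhe22 over 85.6%. Neurod4 had no peak of any list within 2 kb. Its annotated starts held 2 and 7 CG, beside a median of 6 over all windows, and which of them is the deposited start was not determined. Neurog2, covered whole, held 8. A link between CG count and peaks was not tested. The lists hold positions only, each from 1 library without replicates, so peak presence is described here and not tested.

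Ring1B peaks of NeuP lay within 2 kb of 4 of 8 members, Olig2, Neurog2, Neurod1 and Atoh1, beside 10.4% of all genes and 4.32% of genes under 1 FPKM in all 5 libraries. Of these 4 members only Atoh1 is itself such a low gene. In hairpin #2 Ring1B peaks lay at 7 of 8, beside 24% of all genes and 13.9% of those low genes. In hairpin #4 they lay at 6 of 8, beside 9.24% and 6.95%. In control ESC they lay at 4 of 8, Olig1, Olig2, Neurod1 and Bhlhe22, beside 8.1% and 5.33%. These lists differ in depth: the NeuP library held 33.2 M tags, hairpin #2 30.8 M, hairpin #4 9.95 M and control ESC 4.99 M. Among the ESC lists the share of the window covered was larger where the tags were more, with a median over the 8 members of 9.46% in NeuP, 90.0% in hairpin #2, 22.4% in hairpin #4 and 3.55% in control ESC. Depth and condition cannot be told apart in these lists.

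**Figure D3:**
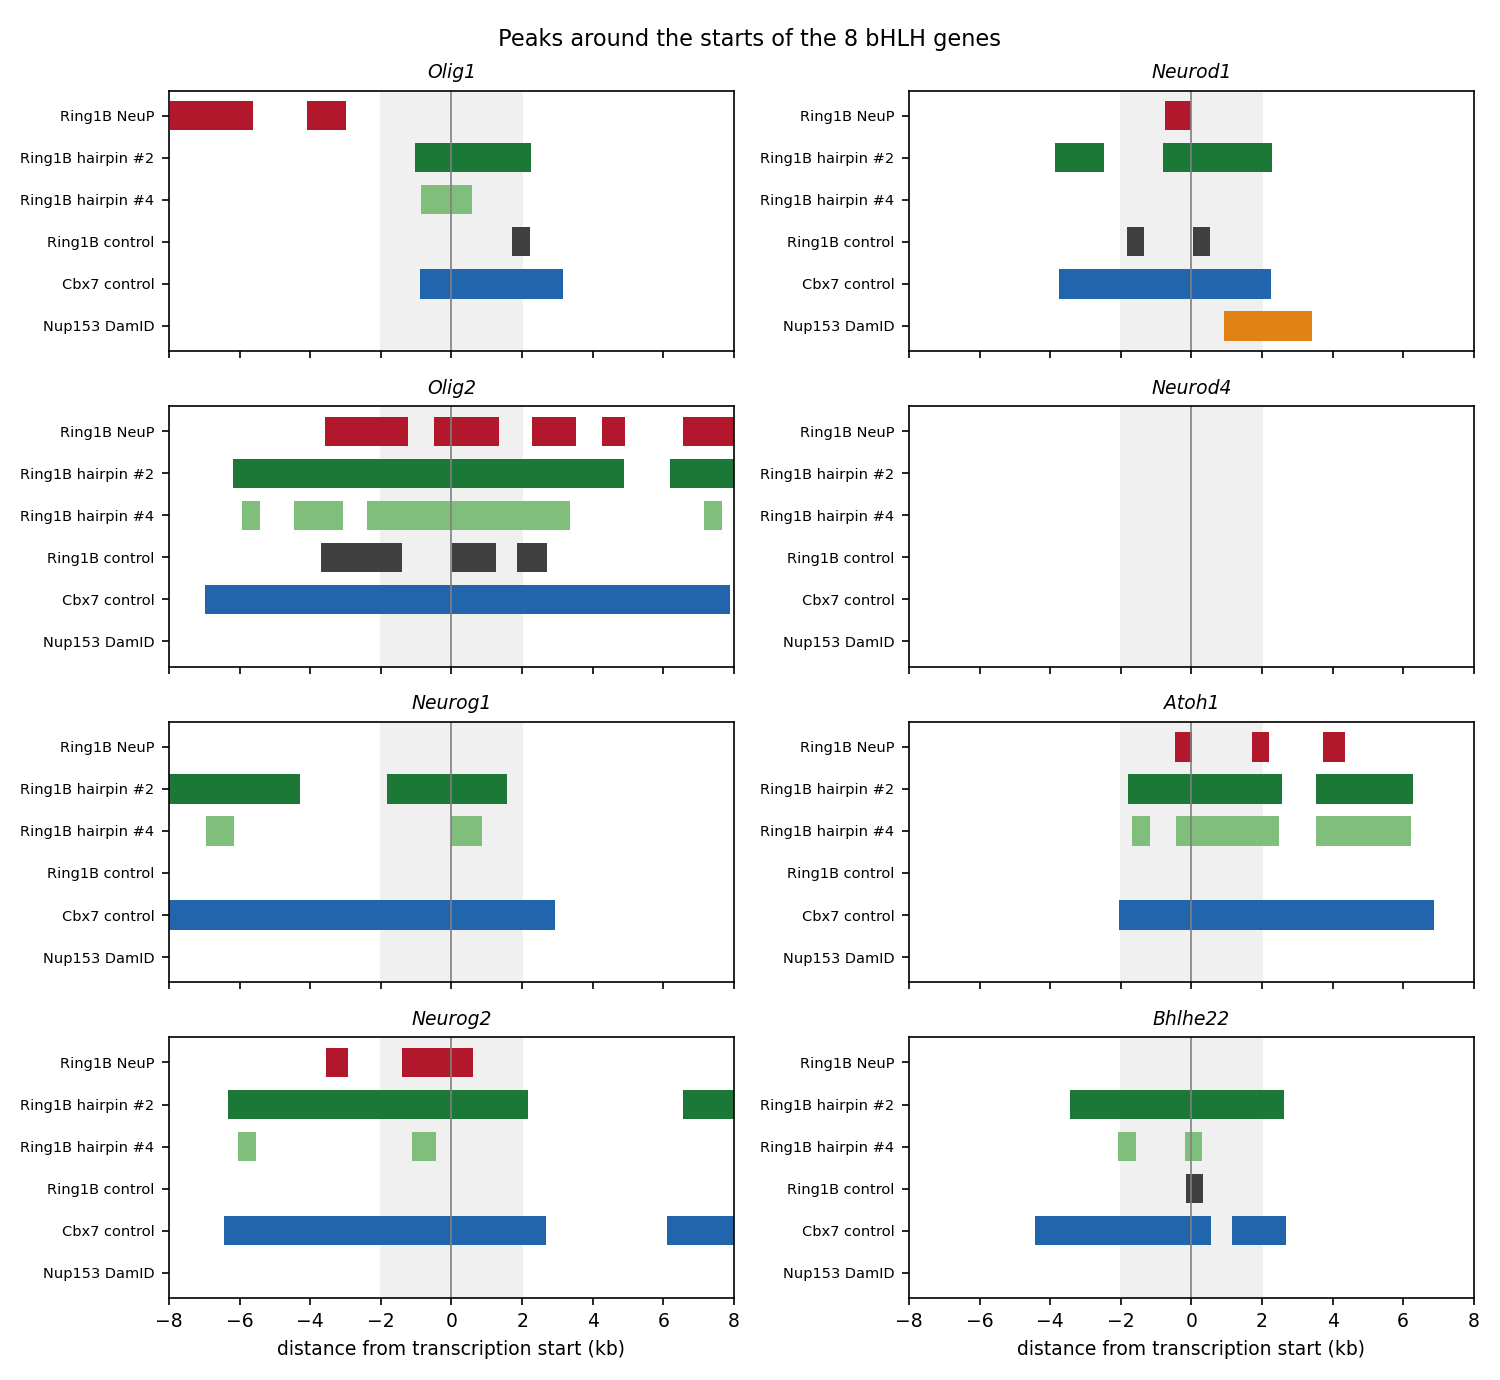
Peaks within 8 kb of the TSS of each member, drawn to scale in mm9 with the transcribed strand to the right and 1 row per list, the grey band marking 2 kb either side of the start. Cbx7 peaks lie over the start of 7 members, Neurod4 carries no peak, and the single Nup153 DamID peak lies inside Neurod1.

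Olig2 kept Ring1B peaks in NeuP, where its RNA was high. The NeuP list held a peak from -489 to 1335 bp of the Olig2 TSS and another from -3595 to -1237 bp, together covering 64.7% of the window. Hairpin #2 had 1 peak of 11087 bp and hairpin #4 1 peak of 5756 bp, each covering the whole window, and control ESC had 3 peaks covering 50.2%. Olig1 had no Ring1B peak of NeuP in its window, the nearest ending at -3002 bp from the TSS, while hairpin #2 covered 75.9% of it, hairpin #4 36.1% and control ESC 7.10%. The starts of Olig2 and Olig1 lie 44.2 kb apart, and over the 64.2 kb from 10 kb before the first to 10 kb after the other, Ring1B peaks of NeuP numbered 7 and covered 18.4%. Of those 7, 5 lay wholly between the windows of the pair, against 1 of 3 in hairpin #2, 1 of 5 in hairpin #4 and 0 of 4 in control ESC. This count leaves out peaks that cross a window edge, such as that of hairpin #2 from -6202 to 4884 bp of the Olig2 TSS. It therefore depends on how a stretch was split into peaks. Coverage of the same stretch was 25.3% in hairpin #2, 14.9% in hairpin #4 and 7.63% in control ESC, and 29.5% for Cbx7.

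The commitment genes Neurog1, Neurog2 and Atoh1 had Ring1B peaks in both hairpin lists and none within 2 kb in control ESC, a combination found at 3.41% of all genes. All 3 nevertheless carried the Cbx7 peak of control ESC over the whole window, from a library of 22.5 M tags. At Neurog1 the Ring1B peaks covered 85.4% of the window in hairpin #2 and 21.8% in hairpin #4, and 0% in NeuP. At Neurog2 they covered 50.6% in NeuP, 100% in hairpin #2 and 17.5% in hairpin #4, and at Atoh1 19.8% in NeuP, 94.7% in hairpin #2 and 73.5% in hairpin #4. Neurog2 and Atoh1 thus had a peak in NeuP and none in control ESC, as did 8.45% of all genes, and Olig1 and Bhlhe22 the opposite, as did 6.11%. With a peak in NeuP alone, Neurog2 was at 1.01 and 0.465 FPKM in NeuP, against 0.036 FPKM in control ESC. Atoh1 was at 0.015 and 0 FPKM, against 0.132 FPKM. With a peak in control ESC alone, Olig1 was at 288 and 139.9 FPKM in NeuP, against 0.036 FPKM in control ESC. Bhlhe22 was at 0.01 and 0.052 FPKM, against 0.049 FPKM. A relation between RNA and peak was not tested, and the NeuP and control Ring1B lists differ in depth.

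**Figure D4:**
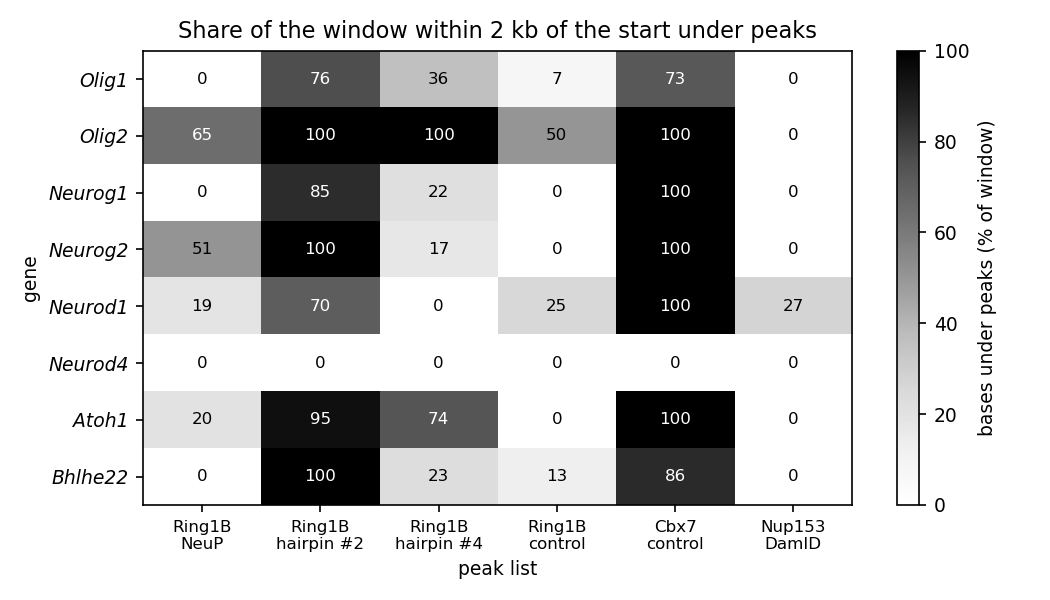
Percent of the window of 2 kb either side of the TSS covered by the peaks of each list, for each member, as cells shaded from 0 to 100. The Cbx7 and hairpin #2 Ring1B lists cover most windows, the control Ring1B list covers at most 50.2%, and Neurod4 is at 0 throughout.

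Neurod1 differed from the other members in its peaks as it did in its RNA. It was the only member with a Nup153 DamID peak, from 917 to 3417 bp after the TSS (mm9 chr2:79293376-79295876). The peak lay inside the transcribed gene and covered 27.1% of the window. Such a peak lay at 5.91% of all genes and 1.89% of genes under 1 FPKM in all 5 libraries, a class that does not hold Neurod1. Beside 5.91%, a count of 1 among 8 genes does not set the members apart. The centre of the Neurod1 peak lies outside the 2 kb window, so a rule on peak centres leaves 0 of 8 members. In the other members the nearest Nup153 DamID peak lay 102 to 1565 kb away. Neurod1 also had Ring1B peaks over 18.9% of the window in NeuP, 70.4% in hairpin #2 and 25.0% in control ESC, and none in hairpin #4, a control-without-hairpin #4 combination seen at 4.07% of all genes. Its RNA in hairpin #4 is a single library, which was not tested on its own.

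Oct4 was not found at any member. Of the 8 members 0 had an Oct4 ChIP peak within 2 kb in hairpin #2, beside 0.712% of all genes and 0.175% of genes under 1 FPKM in all 5 libraries. The same count of 0 held in control ESC, beside 0.733% and 0.244%, and for Oct4 DamID, beside 2.8% and 1.28%. At such backgrounds a count of 0 among 8 genes does not set the members apart. The octamer letters before Neurog1 shown above had no Oct4 peak near them, the nearest of control ESC being 35.8 kb from the TSS.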

How the data were processed

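Polyadenylated RNA of 5 libraries, strand-specific per the labels, was read from a table of FPKM values deposited by the authors, 1 transcript per symbol; use of the strand in counting is not given in the sources used. Per the submitters' processing notes the tools were CASAVA 1.8.2, Bowtie2 2.1.0, STAR 2.2.0c, HOMER 4.6 and edgeR, with mm9. Peaks were deposited as positions without heights. HOMER findPeaks made each ChIP list, per the file headers, from 1 library against an IgG library from ESC, also for NeuP, at a fold of at least 4. The labels and headers do not state how DamID replicates and GFP controls gave 1 list.

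At low levels each FPKM equalled a whole number of reads (100% within 0.1 read), which gave reads and depth (24.3 to 32.1 M fragments). limma 3.58.1 in R 4.3.3 was run as limma-trend on log2(FPKM + 1) over the 13750 genes of at least 1 FPKM in at least 1 library, in 1 fit of 3 groups with 2 residual degrees of freedom, two-sided, with Benjamini-Hochberg adjustment and calls at 0.05. The procedure was tested on simulated data with changes set in NeuP alone and the same spread for every gene. That spread was set beforehand and not taken from these libraries. Ratios of reads carry exact conditional 95% intervals that cover counting error only. A member had a peak where 1 bp or more fell within 2 kb of the deposited TSS (Python 3.11.15, pandas 2.3.3, numpy 2.4.6, scipy 1.17.1, matplotlib 3.10.9). Promoter sequences are on another build than the peaks, and no coordinates were converted. All members were named, with at most 4 called genes per other list by size of change and the 3 nearest patterns per member. A gene of the list of other bHLH factors is not reported here. Members and lists were chosen with earlier results of these data known. Alternatives covered the pseudocount, filter, normalization, voom, ESC libraries alone, each replicate left out, and the peak rule.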

Additional observations from a re-analysis of the deposited data

How the results depend on the processing

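Of the 4 tested members, 2 were called in NeuP against control ESC in the analysis as reported and 1 to 4 when each replicate was left out in turn. Olig1 lost its call without hairpin #2 or without hairpin #4. Fits without a NeuP replicate compared 1 NeuP library with 1 control library. Their spread came from the hairpin libraries alone, so their calls take no account of variation between NeuP libraries. A pseudocount of 0.1, quantile normalization and voom each called 3, adding Neurog2 (limma, Benjamini-Hochberg adjusted p = 0.0309, 0.0333 and 0.0278). Genes called over the whole table moved with the replicates too: higher and lower in NeuP numbered 2516 and 3420 as reported, 319 and 1508 when hairpin #2 was left out, 318 and 1504 for hairpin #4, 4692 and 5927 for NeuP replicate 1, and 4616 and 6629 for NeuP replicate 2. For the knockdown 0 members were called under every alternative that was run; without the filter 55 genes were called higher and 175 lower, against 0 and 0 as reported.

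Directions turned in 4 cases. The Neurod1 difference in NeuP ran from -0.49 to 1.11 over the left-out replicates. In the knockdown, the Neurog2 difference was -0.026 under quantile normalization and ran from -0.0014 to 0.030 over the left-out replicates, and that of Olig2 ran from -0.023 to 0.25. Why these directions turned was not tested. By the centre of the peak, 0 members held a Nup153 DamID peak, against 1 by overlap. The Neurod1 peak, from 917 to 3417 bp after the TSS, has its centre outside the window. The other 26 peak counts stayed within 1.5 times. A stricter peak threshold was not run because the lists hold no score. No paired analysis was possible because the control has 1 library and the groups compared share at most 1 replicate number.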

Other observations

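Of the other 21 proneural and neuronal bHLH genes, 15 had a Cbx7 peak of control ESC within 2 kb of the TSS, beside 13.2% of all genes. Ring1B peaks lay at 3 of them in NeuP, beside 10.4% of all genes, at 14 in hairpin #2, beside 24%, at 9 in hairpin #4, beside 9.24%, and at 6 in control ESC, beside 8.1%. A Nup153 DamID peak lay at 1 of 21, beside 5.91% of all genes: Neurog3, the pancreatic endocrine relative of Neurog1 and Neurog2. No difference between these genes and the 8 members was tested.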
